A study of Mus musculus with 11 samples.

Results

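The genes described are 9 nuclear receptors: the estrogen receptors Esr1 and Esr2, the progesterone receptor Pgr, the glucocorticoid receptor Nr3c1, the mineralocorticoid receptor Nr3c2, the vitamin D receptor Vdr, the estrogen-related receptor Esrra and the thyroid hormone receptors Thra and Thrb. They were chosen by name, and all 9 were found among the 23420 gene symbols of the count table. RNA with poly-A tails was sequenced from whole condylar fibrocartilage of the lower jaw, with all its cells together, in C57BL/6 females. Every animal had been ovariectomized at 6 weeks of age, carried a pellet for 1 week and was sampled at 7 weeks. The groups were the estrogen receptor alpha knockout under 17β-estradiol (KO E2, n = 3), the knockout under placebo (KO Plb, n = 3), the wild type under estradiol (WT E2, n = 3) and the wild type under placebo (WT Plb, n = 2). The estradiol pellet held 0.01 mg for release over 60 days. The removal of the ovaries, which is shared by all 4 groups, took away the main source of estrogen, and the estradiol groups got the hormone back from the pellet. The labels give neither the deleted part of the Esr1 allele nor whether each sample was a different animal. The p-values below therefore cover sample-to-sample spread of unknown, perhaps technical, origin.

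Nuclear receptors are transcription factors that are switched by small lipid-soluble ligands. The steroid receptors bind DNA mostly as pairs of themselves, while the vitamin D and thyroid hormone receptors bind beside a retinoid X receptor. In cartilage and bone these receptors are known for setting growth, hypertrophy and mineral turnover, and Pgr is a classical target that estrogen receptor alpha switches on in uterus and breast. Esrra has no known steroid ligand and acts on genes of mitochondrial energy use.

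The promoter windows of the receptor genes that changed between genotypes, Esr1 and Pgr, are shown for orientation, each from 250 bases before to 50 bases after the annotated start. They come from RefSeq on build GRCm38.p6, whereas the authors aligned to mm9, so the positions apply to GRCm38.p6 only. Of the 9 genes, 7 had an entry, with 9 windows in all. Pgr lies at chr9:8899583-8899882 and the first Esr1 window at chr10:4611739-4612038, both on the plus strand. Capitals mark a match to a single arm (GGTCA or TGACC) of the estrogen response element.
Pgr: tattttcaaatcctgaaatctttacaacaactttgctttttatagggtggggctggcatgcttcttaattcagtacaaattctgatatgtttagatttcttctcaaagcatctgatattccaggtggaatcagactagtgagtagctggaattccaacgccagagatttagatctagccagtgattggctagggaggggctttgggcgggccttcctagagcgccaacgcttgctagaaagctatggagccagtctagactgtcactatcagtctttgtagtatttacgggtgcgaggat
Esr1: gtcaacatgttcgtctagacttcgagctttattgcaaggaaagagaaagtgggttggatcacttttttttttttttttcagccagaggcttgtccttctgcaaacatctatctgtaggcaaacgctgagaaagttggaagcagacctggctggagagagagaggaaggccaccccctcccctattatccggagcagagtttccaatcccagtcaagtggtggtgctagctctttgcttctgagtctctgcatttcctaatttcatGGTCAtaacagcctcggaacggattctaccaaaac

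The full palindrome, with GGTCA and TGACC set 3 bases apart and read the same on both strands, was found in 0 of the 9 windows and in 23 of 32851 promoters of the same length (0.0700%). A single arm was found in 40.5% of those promoters. The Esr1 window shown held 1 arm, and neither the Pgr window nor the second Esr1 window held any. These letters say nothing of whether a receptor binds there or elsewhere.

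The libraries held 15.7 to 25.5 M counts. Values are given as counts and as CPM, the count divided by the scaled library total in M. A level of 3 counts, taken as the floor, was 0.118 to 0.204 CPM, and intervals on counts cover counting error only. Of the 9 genes, 8 passed the filter on low counts and were tested among 14531 genes with edgeR's quasi-likelihood test and Benjamini-Hochberg adjustment, a call being an adjusted p under 0.05. Esr2 was too low to be tested. Markers of cartilage summed to 9137 to 26818 CPM and those of fibrous and superficial cells to 110150 to 171537 CPM, and none of either list that the table holds was at 0 everywhere. The tissue as dissected also carried other RNA: summed skeletal muscle markers were 10.2 to 13.4 CPM in KO E2, 90.3 to 809 in KO Plb, 34.4 to 272 in WT E2 and 38.9 to 1342 in WT Plb. WT Plb library 2, the highest in muscle RNA, also spent 16.0% of its counts on the ribosomal precursor Rn45s, against 1.83% to 3.13% in the others.

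The 9 receptor genes differed widely in level. On the scale of CPM per kb of annotated exon, averaged over the 11 libraries, Vdr stood highest at 30.6 and ranked 1127 of 16965 genes. Nr3c1 (16.9) and Thra (15.4) came next, and their ranges over libraries (13.7 to 20.4 and 13.7 to 16.8) overlapped, so that these neighbours did not differ beyond their spread. Esrra followed at 6.02 CPM per kb and Thrb at 1.90, each with a range clear of its neighbours. Esr1 was at 0.415 CPM per kb (0.187 to 0.981) and Nr3c2 at 0.202 (0.0994 to 0.312), with ranges that overlapped. The Esr1 range includes the KO libraries, where this gene was lower. In the WT libraries alone, before scaling to exon length, Esr1 was at 6.43 to 13.4 CPM and Nr3c2 at 0.644 to 1.45 CPM. Their exon lengths were 13.7 and 6.47 kb. Pgr (0.0207) and Esr2 (0.0150) were the lowest, with 45 and 11 counts in all 11 libraries together. The retinoid X receptors Rxra and Rxrb, the usual partners of Vdr, Thra and Thrb, were at 25.2 and 13.6 CPM per kb.

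Esr1, the gene that the knockout targets, was lower in all 6 KO libraries than in all 5 WT libraries. Its counts were 61, 43 and 84 in KO E2 libraries 1 to 3, 115, 85 and 63 in KO Plb libraries 1 to 3, 200, 147 and 156 in WT E2 libraries 1 to 3, and 249 and 97 in WT Plb libraries 1 and 2. Scaled to depth, Esr1 averaged 3.24 ± 0.62 CPM in KO E2 and 3.84 ± 1.10 in KO Plb (SD, n = 3 each), against 7.03 ± 0.77 in WT E2 (SD, n = 3) and 13.4 and 6.60 in the WT Plb libraries. The lowest WT library, WT E2 3 at 6.43 CPM, stood above the highest KO library, KO Plb 1 at 4.86 CPM. WT Plb library 1 was above all other libraries, and WT Plb library 2 lay inside the range of WT E2.

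Averaged over both agents, Esr1 fell to 42.1% of the WT level in KO (log2 difference -1.25, SE 0.21, adjusted p = 0.00478). It was the single receptor gene called in that comparison, where 7.36% of all tested genes were called, and 2.77% were called lower. With an unadjusted p under 0.05 there were 4 receptor genes of the 8 tested, against 27.2% of all. Groups without overlap in that direction were seen in 2.62% of tested genes. Esr1 kept the call in 17 of 17 alternative fits, with log2 differences of -1.72 to -0.95. In tissue sequenced whole, fewer cells that express a gene and less RNA per cell cannot be told apart. Counts over a whole gene do not show which part of the transcript the remaining KO reads cover.

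**Figure D1:**
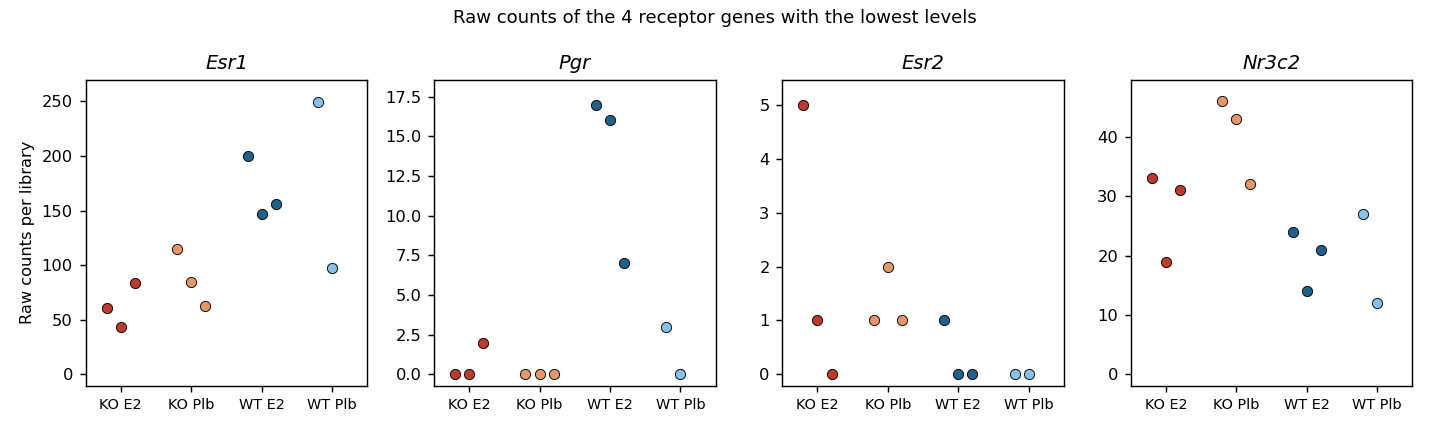
Raw counts per library (vertical axis) of the 4 receptor genes with the lowest levels per kb, with 1 point for each library and the groups KO E2, KO Plb, WT E2 and WT Plb from left to right. Esr1 lay at 43 to 115 counts in KO libraries and 97 to 249 in WT libraries, Pgr reached 7 to 17 counts in WT E2 and at most 3 elsewhere, and Esr2 never passed 5 counts.

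Under estradiol, Esr1 was 2.16-fold lower in KO than in WT (log2 -1.11, SE 0.28, adjusted p = 0.0257). That call was lost without WT E2 library 1, 2 or 3 or without KO E2 library 1 or 2, at adjusted p = 0.0545 to 0.0960, and over all 17 alternatives the adjusted p ran from 0.00379 to 0.0960. Under placebo the log2 difference was -1.39 (SE 0.30, 95% interval -2.04 to -0.73), but it did not pass across all genes (adjusted p = 0.468, unadjusted p = 0.000588). Just 1 of the 14531 genes (0.00688%) was called in that comparison. DESeq2 called Esr1 there, at an adjusted p of 0.0175, in a range of 0.0175 to 0.786 over the 17 alternatives. In the authors' deposited table of KO Plb over WT Plb, the Esr1 log2 fold change was -1.18 with an adjusted p of 0.120, and in their table of KO E2 over WT E2 it was -1.08 with an adjusted p of 0.000152. The log2 difference under placebo was -0.78 without WT Plb library 1 and -1.80 without WT Plb library 2.

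Estradiol did not move Esr1 beyond the spread. The log2 difference between E2 and Plb was -0.24 in KO (95% interval -0.86 to 0.38) and -0.52 in WT (95% interval -1.16 to 0.13). Without WT Plb library 1, which held the highest Esr1 level of all, the WT difference was 0.09.

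Pgr, the progesterone receptor, was counted at more than a trace in the WT E2 group only among these libraries. It had 0, 0 and 2 counts in KO E2 libraries 1 to 3 and 0 in each of the 3 KO Plb libraries, against 17, 16 and 7 in WT E2 libraries 1 to 3 and 3 and 0 in WT Plb libraries 1 and 2. Every WT E2 library lay above every other library. Because Pgr passed the filter through the WT E2 group alone, it had to differ there once it was tested. All libraries outside WT E2 were at or under the floor of 3 counts.

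Under estradiol, Pgr was lower in KO, with 2 counts against 40 in WT, a ratio of 0.0624 after scaling to depth (exact 95% counting interval 0.00731 to 0.241). The fitted log2 difference was -3.82 (SE 1.05, adjusted p = 0.0422), a value that depends on how the fit treats libraries at 0 and, given how Pgr passed the filter, a description rather than a test. The authors' deposited table of KO E2 over WT E2 gives -2.23 on the log2 scale with an adjusted p of 0.0103. The calls of this comparison were 2 of the 8 tested receptor genes (Esr1 and Pgr, both lower), where 11.5% of all tested genes were called and 4.2% were called lower, and because Pgr is 1 of the 2, nothing is read from that count. At an unadjusted p under 0.05 there were 4 of the 8, against 26.9% of all tested genes. Pgr lost its call with DESeq2 (adjusted p = 0.0652) and without WT E2 library 3 (0.0539) or KO E2 library 1, 2 or 3 (0.0635 to 0.120), in a range of 0.0336 to 0.120 over 15 alternatives.

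In WT, Pgr had 40 counts in the 3 E2 libraries against 3 in the 2 Plb libraries, a ratio of 6.22 (exact 95% counting interval 1.98 to 31.4). The fitted difference did not pass (log2 2.59, SE 1.08, adjusted p = 0.308). In KO both groups were at or under the floor, and no fold is given.

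Esr2, which encodes estrogen receptor beta, was near 0 throughout. It had 5, 1 and 0 counts in KO E2 libraries 1 to 3, 1, 2 and 1 in KO Plb libraries 1 to 3, 1, 0 and 0 in WT E2 libraries 1 to 3, and 0 in both WT Plb libraries. The highest value, 5 counts in KO E2 library 1, was 0.279 CPM, and every other library was under the floor. The sums of 6 counts in KO E2 and 1 in WT E2 gave a ratio of 7.49 with an exact 95% counting interval of 0.909 to 345, so no difference was detectable at this depth.

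Nr3c1 and Nr3c2, the glucocorticoid and mineralocorticoid receptors, are close relatives that both bind corticosterone in the mouse. Nr3c1 was at 131, 130.5 and 127 CPM in KO E2 libraries 1 to 3, 155, 157 and 129.5 in KO Plb, 111, 115 and 105 in WT E2, and 155 and 111 in the WT Plb libraries. The KO E2 libraries all lay above the WT E2 libraries, while the Plb groups overlapped. Nr3c2 had 33, 19 and 31 counts in KO E2, 46, 43 and 32 in KO Plb, 24, 14 and 21 in WT E2, and 27 and 12 in WT Plb.

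For both genes the KO level under estradiol was higher by a margin that did not pass the test. Nr3c1 averaged 129.6 ± 1.9 CPM in KO E2 and 110.3 ± 5.1 in WT E2 (SD, n = 3 each; log2 0.23, SE 0.11, 95% interval -0.01 to 0.48, adjusted p = 0.211). Nr3c2 averaged 1.45 ± 0.36 CPM in KO E2 and 0.819 ± 0.157 in WT E2 (SD, n = 3 each; log2 0.82, SE 0.34, 95% interval 0.07 to 1.56, adjusted p = 0.150). These were the 2 receptor genes whose KO E2 and WT E2 libraries separated upward without overlap, as 17.7% of tested genes did, while Esr1 and Pgr separated downward, as 16.9% did. Averaged over both agents, Nr3c2 was 1.65-fold higher in KO (log2 0.72, SE 0.26, adjusted p = 0.0994) and Nr3c1 1.14-fold higher (log2 0.19, SE 0.09, adjusted p = 0.173), and the libraries of the genotypes overlapped for both.

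The average Nr3c1 difference between KO and WT moved with the WT Plb libraries. It was called without WT Plb library 1 (log2 0.32, adjusted p = 0.0211) and was 0.0837 without WT Plb library 2, whereas the difference under estradiol stayed between 0.20 and 0.27 with any 1 library left out. The 3 libraries richest in muscle RNA (KO Plb 1 and 2 and WT Plb 2) were also left out, a choice made after seeing the data. The difference averaged over both agents was then -0.01, while the difference under estradiol stayed in the range just given. In WT, the log2 difference of E2 against Plb was -0.49 in that fit, which keeps WT Plb library 1 alone in its group. With all libraries the difference of E2 against Plb in WT was -0.27 (SE 0.13, adjusted p = 0.376).

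Vdr, the vitamin D receptor, was highest in WT E2. It stood at 159, 145 and 179 CPM in KO E2 libraries 1 to 3, 163, 142 and 189 in KO Plb, 219.6, 220.7 and 177 in WT E2, and 174 and 136 in the WT Plb libraries. In WT, each E2 library was above each Plb library, and library 3 of WT E2 lay within the range of the KO groups. The difference between E2 and Plb was 0.41 on the log2 scale in WT (SE 0.15, 95% interval 0.08 to 0.74, unadjusted p = 0.0191, adjusted p = 0.230) and -0.03 in KO (SE 0.13, 95% interval -0.32 to 0.26).

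The test of the difference itself, the WT effect minus the KO effect, gave 0.44 for Vdr (SE 0.20, unadjusted p = 0.0493, adjusted p = 0.428). Under estradiol Vdr was lower in KO by a margin that did not pass in edgeR (161 ± 17 CPM in KO E2, 206 ± 25 in WT E2, SD, n = 3 each; log2 -0.35, SE 0.13, adjusted p = 0.114). The authors' deposited table of KO E2 over WT E2 gives -0.35 as well, with an adjusted p of 0.0319. Summed osteoblast and osteocyte markers were 5089 to 5847 CPM in KO E2 against 8367 to 8615 in WT E2, and summed osteoclast markers were 7965 to 9440 against 12296 to 12781. Of the 7 osteoblast and osteocyte markers, edgeR called 2 lower and 0 higher (4.2% of all tested genes were called lower). Their median log2 difference was 0.04, so the lower sum does not hold for each marker. Of the 6 osteoclast markers, 4 were called lower, with a median of -0.55. The part of either list in the Vdr difference was not tested.

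Thra and Esrra varied least over the libraries among the 9 genes, and Thrb varied more. Thra, the main thyroid hormone receptor of the skeleton, was at 75.1, 66.7 and 63.6 CPM in KO E2 libraries 1 to 3, 67.8, 70.4 and 77.4 in KO Plb, 71.2, 76.2 and 76.2 in WT E2, and 63.1 and 72.1 in WT Plb. From lowest to highest library it varied 1.23-fold, the least of the 9 genes. Its log2 differences and 95% intervals were -0.07 (-0.26 to 0.12) for E2 against Plb in KO, 0.14 (-0.07 to 0.36) for E2 against Plb in WT, -0.12 (-0.31 to 0.07) for KO against WT under estradiol and 0.09 (-0.12 to 0.30) under placebo. None of these intervals reached a 1.5-fold change.

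Thrb was lower and more variable, at 17.4, 14.6 and 11.9 CPM in KO E2, 16.3, 15.8 and 13.5 in KO Plb, 13.1, 13.8 and 9.44 in WT E2, and 18.9 and 9.93 in WT Plb. The groups overlapped in every comparison. Its 95% interval for E2 against Plb in WT ran from -0.81 to 0.30 on the log2 scale, so moderate differences in either direction were not detectable for Thrb.

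Esrra stood at 21.6, 27.1 and 25.8 CPM in KO E2, 27.2, 28.5 and 25.6 in KO Plb, 25.2, 23.3 and 28.4 in WT E2, and 28.3 and 29.7 in WT Plb. The groups overlapped here too, and the log2 differences lay between -0.18 and -0.05 in the 4 pairwise comparisons. For E2 against Plb in WT the 95% interval was -0.44 to 0.08.

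**Figure D2:**
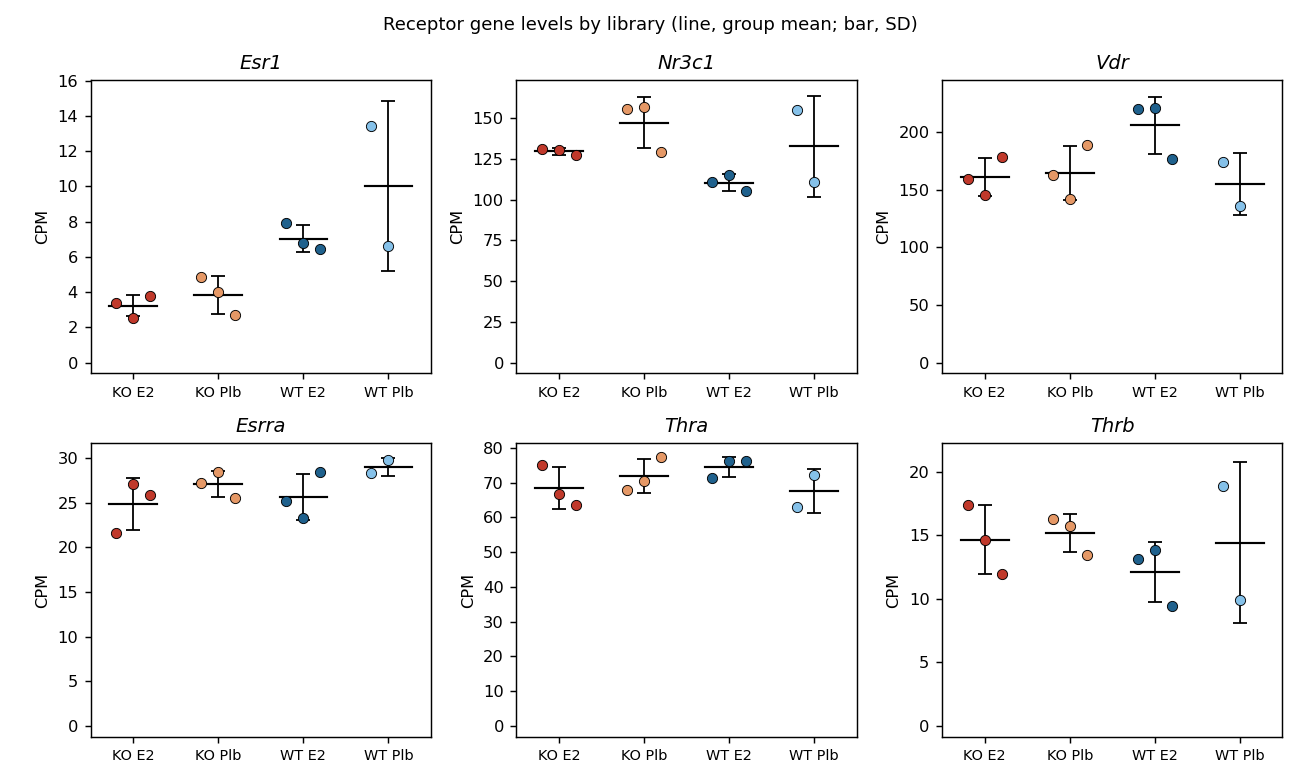
CPM (vertical axis, starting at 0) of 6 receptor genes in each library, with groups KO E2, KO Plb, WT E2 and WT Plb from left to right, a line at the group mean and a bar of 1 SD (n = 3, but n = 2 in WT Plb). Esr1 separates by genotype, Vdr is highest in WT E2 (177 to 220.7 CPM), and Thra stays between 63.1 and 77.4 CPM in every library.

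**Figure D3:**
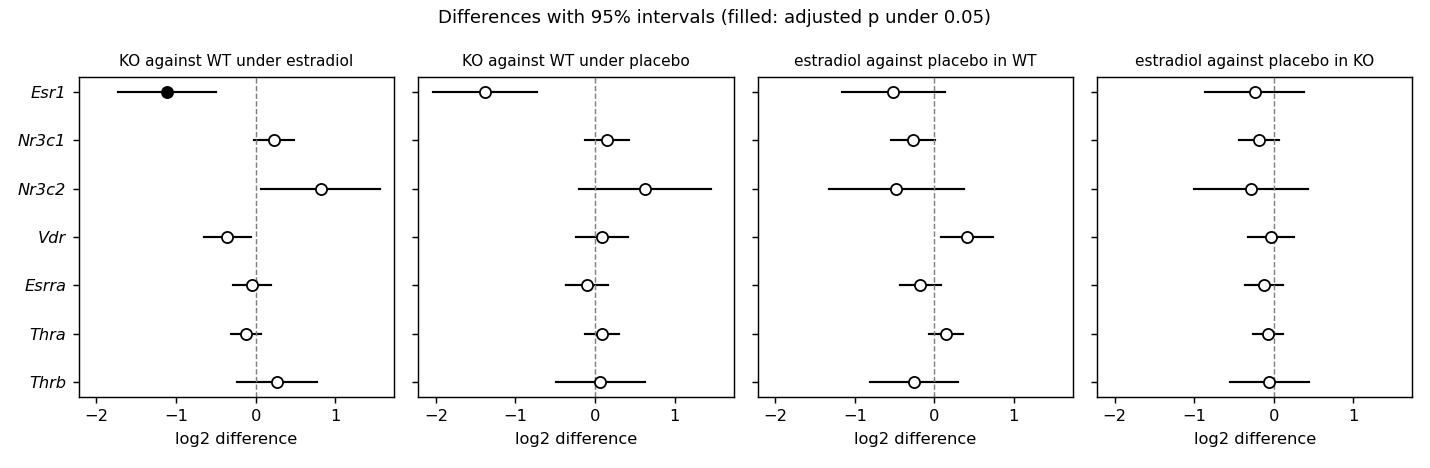
Log2 differences with 95% intervals (horizontal axis) for the 7 receptor genes with counts in every library, for KO over WT under estradiol and under placebo and for E2 over Plb in WT and in KO. Filled points have an adjusted p under 0.05 by edgeR, which is Esr1 under estradiol at -1.11, and the intervals of Thra and Esrra are the narrowest.

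Counted over the comparisons, estradiol called 0 of the 8 tested receptor genes in WT, where 1.55% of all tested genes were called, and 0 in KO, where 2.73% were called. In KO that share was 396 genes, and 629 with the replicate number as a block, with 0 receptor genes in either. With edgeR, 2 of the 8 (Pgr and Vdr) had an unadjusted p under 0.05 in WT (14% of all tested genes) and 0 in KO (16.5% of all), and DESeq2 called 0 in both. Pgr and Vdr were also the ones without overlap between WT E2 and WT Plb, both higher, as 13.2% of tested genes were. The interaction called 0 in edgeR and 0 in DESeq2, against 1.15% of all tested genes, with 1 (Vdr) at an unadjusted p under 0.05 (11.6% of all). KO against WT under placebo called 0 in edgeR and 1 (Esr1) in DESeq2, with 1 (Esr1) at an unadjusted p under 0.05 (9.21% of all) and without overlap, as 13.8% of tested genes were in that direction. The comparisons of E2 with Plb in WT and of KO with WT under placebo share the WT Plb libraries, and the other pairs share libraries likewise, so that their values are not independent.

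Thra is read from the strand opposite to Nr1d1, the clock receptor Rev-erb alpha, and the annotation used here (GENCODE M21) has 263 exon bases in common between them, 5.70% of the Thra exons. Nr1d1 varied 10.1-fold over the libraries, and Thra 1.23-fold. Nr1d1 counts were 2077, 2500 and 2050 in KO E2, 7780, 7570 and 2456 in KO Plb, 1140, 1090 and 853 in WT E2, and 5391 and 796 in WT Plb. Scaled to depth, Nr1d1 was lowest in WT E2 library 3 (35.2 CPM) and highest in KO Plb library 2 (355 CPM), which had 76.2 and 70.4 CPM of Thra. The sources used here do not say whether counting used strand. Esrra shares 73 exon bases with Trmt112 on the opposite strand and 91 with the microRNA gene Mir6990 on its own, and Nr3c2 shares 247 with Gm10649 on the opposite strand, so small parts of their counts are uncertain.

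**Figure D4:**
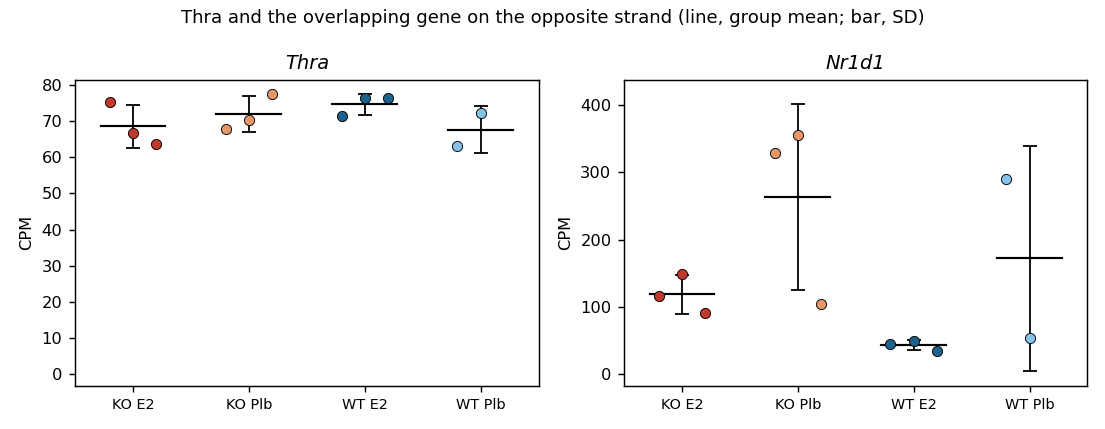
CPM (vertical axes, starting at 0 and differing in scale) of Thra and of Nr1d1 in each library, with groups KO E2, KO Plb, WT E2 and WT Plb from left to right, a line at the group mean and a bar of 1 SD. Nr1d1 ran from 35.2 to 355 CPM while Thra stayed between 63.1 and 77.4 CPM.

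By likeness of pattern, the genes nearest to Esr1 over the 11 libraries were Mmp12, a macrophage elastase, Pde11a, a phosphodiesterase, and AU021092. The measure was the root mean square difference of log2 CPM centred on each gene's mean, taken over 13159 genes with a mean of at least 1 CPM. It was 0.27 for Mmp12, 0.28 for Pde11a and 0.36 for AU021092, where Esr1 itself varied by 0.68 about its mean. Nearest to Pgr were Micall2 (0.48), the macrophage lectin Siglec1 (0.52) and Lilra5 (0.52), on a Pgr variation of 1.19. Outside WT E2, Pgr was at or under the floor. Its pattern is thus little more than the high WT E2 group through which it passed the filter, and nothing is read from its neighbours. Summed macrophage markers were 597.5 to 740 CPM in KO E2, 676 to 679 in KO Plb, 956 to 1123 in WT E2 and 732 to 795 in WT Plb. Their part in the Esr1 and Pgr patterns was not tested.

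Of 40 further nuclear receptor genes, 27 were tested, and edgeR called 1, both in KO against WT under estradiol (11.5% of all tested genes called) and for estradiol in WT (1.55%). DESeq2 called it as well, and beside it Rara and Nr2c2 under estradiol, Nr2c2 on average and Rarg for estradiol in KO. Pparg, the fat cell and osteoclast receptor of the peroxisome proliferator family, was at 2.68, 4.63 and 3.71 CPM in KO E2, 3.04, 4.27 and 2.76 in KO Plb, 1.46, 1.66 and 1.15 in WT E2, and 4.42 and 3.40 in WT Plb. It was lowest in the WT E2 libraries, which overlapped with no other group. Pparg was 2.58-fold higher in KO than in WT under estradiol (log2 1.37, SE 0.27, adjusted p = 0.00807) and fell by 1.46 on the log2 scale with estradiol in WT (SE 0.30, adjusted p = 0.0320). The first call held in 17 of 17 alternatives and the second in 11, being lost at adjusted p = 0.0506 to 0.143 without WT Plb library 1, WT E2 library 1, 2 or 3, KO Plb library 1 or the muscle-rich libraries. The interaction for Pparg was -1.59 in edgeR (SE 0.40, adjusted p = 0.0797), where it was not called, and DESeq2 called it in the same direction. Summed adipocyte markers were 3.91 to 20.8 CPM in KO E2, 3.93 to 26.5 in KO Plb, 0.907 to 2.41 in WT E2 and 6.41 to 10.4 in WT Plb. Of these 6 markers 3 were tested. For KO against WT under estradiol 1 was called higher, but their median log2 difference was -0.49. For estradiol in WT 0 were called, with a median of -2.10. Summed osteoclast markers were 7965 to 9440 CPM in KO E2, 12296 to 12781 in WT E2 and 8825 to 10555 in WT Plb. The part of either list in the Pparg difference was not tested.

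Rxra, Rxrb, Rara and Nr2f2 showed smaller differences than Pparg. Nr1d1 differed more for estradiol in WT but was not called (log2 -1.99, SE 0.72, adjusted p = 0.267). That difference ran from -2.74 to -0.33 with 1 library left out. Rxra and Rxrb varied 1.47-fold and 1.23-fold over all libraries. Rara, the retinoic acid receptor alpha, was at 43.3, 44.6 and 44.4 CPM in KO E2, 30.8, 33.7 and 47.9 in KO Plb, 76.8, 69.8 and 48.2 in WT E2, and 35.0 and 46.6 in WT Plb. It was above KO E2 and WT Plb in every WT E2 library without passing the test (KO against WT under estradiol, log2 -0.56, adjusted p = 0.0962; E2 against Plb in WT, 0.67, adjusted p = 0.183). The Rara difference under estradiol was called by DESeq2 (adjusted p = 0.0365) and without WT E2 library 3 or KO Plb library 3 (0.0377 and 0.0480), in a range of 0.0365 to 0.244 over 17 alternatives. Nr2f2, or COUP-TFII, averaged 17.3 ± 1.4 CPM in KO E2 and 23.1 ± 3.7 in KO Plb (SD, n = 3 each; log2 -0.41, SE 0.13, adjusted p = 0.124).

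Coregulators are the proteins that receptors recruit to chromatin. Of 15 coactivators, edgeR called 3 higher and 1 lower in KO against WT under estradiol, where it called 11.5% of all tested genes, with a median log2 difference of 0.26 against -0.001 over all tested genes. DESeq2 called 4 higher and 1 lower, the added gene being Ppargc1a. Ncoa7, a coactivator known to bind estrogen receptor alpha, was at 15.9, 17.3 and 18.4 CPM in KO E2, 13.5, 13.4 and 16.7 in KO Plb, 24.5, 25.3 and 23.7 in WT E2, and 12.5 and 13.7 in WT Plb. It was highest in the 3 WT E2 libraries without overlap. Ncoa7 was lower in KO than in WT under estradiol (log2 -0.51, SE 0.11, adjusted p = 0.0124) and rose 1.87-fold with estradiol in WT (log2 0.90, SE 0.13, adjusted p = 0.00343), and both calls held in 17 of 17 alternatives.

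The acetyltransferase Ep300 (log2 0.50, adjusted p = 0.0294) and the p160 coactivators Ncoa1 (0.44, adjusted p = 0.0393) and Ncoa2 (0.52, adjusted p = 0.0491) were higher in KO than in WT under estradiol. WT E2 library 3 was the lowest of all 11 for each of them, at 41.2 CPM for Ep300, 17.9 for Ncoa1 and 30.3 for Ncoa2. Without it the differences were 0.35, 0.29 and 0.35, and none was called (adjusted p = 0.0687, 0.0781 and 0.112). Over the 17 alternatives Ep300 was called in 13, Ncoa1 in 9 and Ncoa2 in 6. Averaged over both agents, Ep300 (0.38) and Ncoa2 (0.42) were called too, at adjusted p = 0.0409 and 0.0496, in 9 and 8 of 17 alternatives.

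Of 10 corepressors edgeR called 1 in KO against WT under estradiol, a share near that of all tested genes (11.5%), and DESeq2 called Tbl1xr1 too. The edgeR call was Sin3a, which was 53.9 to 58.1 CPM in KO E2 and 43.0 to 44.2 in WT E2 (log2 0.36, SE 0.08, adjusted p = 0.0105) and kept the call in 17 of 17 alternatives. Of 11 receptor chaperones 1 was called by edgeR and by DESeq2, Bag1, where edgeR called 11.5% of all tested genes under estradiol and 7.36% on average. Bag1 was at -0.32 under estradiol (adjusted p = 0.0330) and -0.25 averaged over both agents (adjusted p = 0.0352), in 11 and 8 of 17 alternatives. Of 6 tested membrane steroid receptors 0 were called by edgeR in any comparison, and DESeq2 called Paqr9 in KO against WT under estradiol and on average. At most 1 had an unadjusted p under 0.05, in comparisons where 14% to 27.2% of all tested genes did.

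Of 22 tested genes of ligand enzymes and transporters, edgeR called 2 in KO against WT under estradiol, both higher, against 11.5% of all tested genes. DESeq2 called those, Cyp1b1 and Hsd17b12. The edgeR calls, Hsd11b1 and Hsd11b2, encode enzymes that interconvert active and inactive glucocorticoid. Hsd11b1, which regenerates corticosterone inside cells, had 32, 146 and 72 counts in KO E2, 15, 40 and 9 in KO Plb, 2, 7 and 14 in WT E2, and 16 and 16 in WT Plb. Each KO E2 library was above each WT E2 library, and KO E2 library 2 was far above the rest. Its log2 difference between KO and WT under estradiol was 3.78 (SE 0.80, adjusted p = 0.0129), and without WT E2 library 2 its adjusted p was 0.0505, the single alternative of 17 that lost the call.

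Hsd11b2, which inactivates corticosterone and shields Nr3c2 from it in kidney, had 16, 6 and 10 counts in KO E2, 25, 16 and 16 in KO Plb, 4, 2 and 0 in WT E2, and 10 and 4 in WT Plb. It was higher in KO under estradiol (log2 2.66, SE 0.73, adjusted p = 0.0355, called in 12 of 17 alternatives, lost at up to 0.115 without WT E2 library 2 or 3 or KO E2 library 1 or 3 or the muscle-rich libraries). Averaged over both agents it was 1.83 (adjusted p = 0.0462, called in 6 of 17). Cyp1b1, which hydroxylates estrogens, was 0.49 higher (adjusted p = 0.0390) and Hsd17b12, a 17β-hydroxysteroid dehydrogenase that also lengthens fatty acids, fell by 0.25 (adjusted p = 0.0468) on that average, and they kept the call in 8 and 5 of 17 alternatives.

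**Figure D5:**
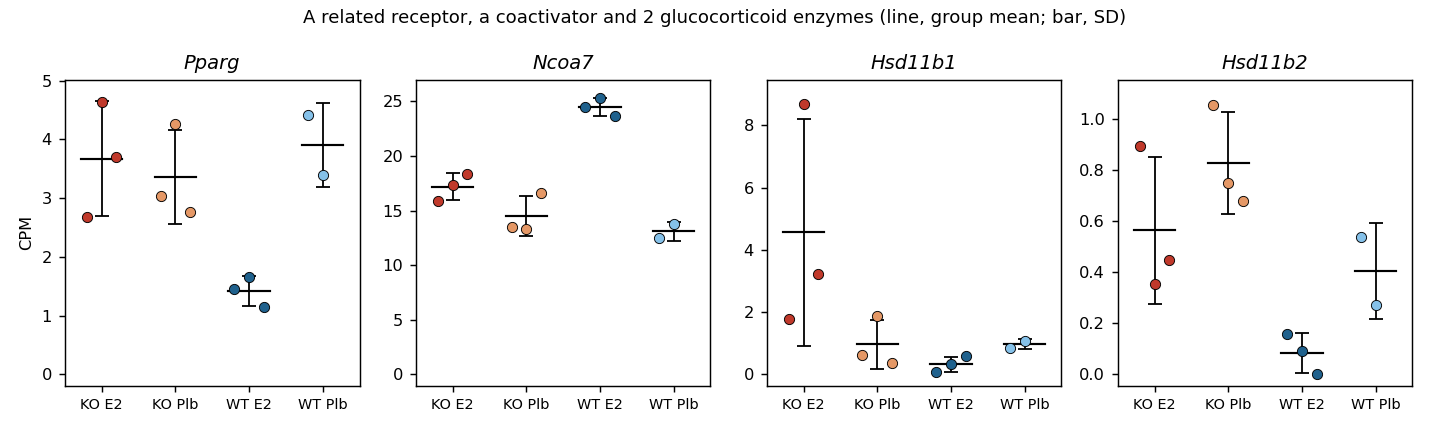
CPM (vertical axis, starting at 0, with a scale for each panel) of Pparg, Ncoa7, Hsd11b1 and Hsd11b2 in each library, with groups KO E2, KO Plb, WT E2 and WT Plb from left to right, a line at the group mean and a bar of 1 SD. Pparg was lowest (1.15 to 1.66 CPM) and Ncoa7 highest (23.7 to 25.3 CPM) in WT E2, and the Hsd11b1 values of KO E2 spread from 1.79 to 8.67 CPM.

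Genes known as targets of the receptors were counted by list. Of 14 tested estrogen receptor targets, which include Esr1, Pgr and Rara, edgeR called 4 higher and 5 lower in KO against WT under estradiol (11.5% of all tested genes called), with a median log2 difference of -0.29. DESeq2 called 5 higher and 6 lower. Beside Esr1 and Pgr, Wnt4 (log2 -1.53) and the lysosomal protease Ctsd (-0.33) were lower, and Myb (7.23), the chemokine Cxcl12 (2.67) and the complement component C3 (3.37) were higher, at adjusted p-values of 1.53e-06 to 0.0119. Igf1 was the remaining higher call. Ctsd lost its call without KO E2 library 2 (adjusted p = 0.0538), and Wnt4, Myb, Cxcl12 and C3 kept theirs in 17 of 17 alternatives. Greb1 had 3 counts in the 3 KO E2 libraries against 863 in the 3 WT E2 libraries, a ratio of 0.00434 (exact 95% counting interval 0.000893 to 0.0127). Like Pgr, it passed the filter through WT E2 alone and had to differ there. Because Pgr, Greb1 and Esr1, the gene that the knockout targets, are among the 5 lower calls, nothing is read from the count of this list. Targets of the vitamin D receptor (7 tested) had 0 called in all 6 comparisons by edgeR and by DESeq2. For all tested genes the edgeR share ran from 0.00688% to 11.5%. At an unadjusted p under 0.05 there were 3 for estradiol in WT (14% of all tested genes). For KO against WT under estradiol there were 2 (26.9% of all). Targets of the thyroid hormone receptors (6 tested) had 0 called by edgeR, and 1, Klf9, called by DESeq2 for the average of KO against WT. At most 2 had an unadjusted p under 0.05 in any comparison, reached on that average (27.2% of all tested genes).

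Of 18 tested targets of the glucocorticoid and mineralocorticoid receptors, edgeR called 2 in KO against WT under estradiol, both higher, a share near the 11.5% of all tested genes, with a list median of 0.31 on the log2 scale. DESeq2 called those and Per1 and Pdk4. Scnn1a, a subunit of the epithelial sodium channel, was at 2.12, 3.86 and 2.77 CPM in KO E2 and 0.987, 1.79 and 1.24 in WT E2 (log2 1.12, SE 0.31, adjusted p = 0.0372). It lost the call without WT E2 library 1 or 3, KO Plb library 1, KO E2 library 2 or 3 or the muscle-rich libraries, at up to 0.141. Lcn2, a siderophore-binding protein that is also on the neutrophil list, had 1701, 4916 and 2358 counts in KO E2 and 10, 77 and 31 in WT E2 (log2 6.60, SE 1.60, adjusted p = 0.0403, called in 8 of 17 alternatives). Summed neutrophil markers were 1279 to 4525 CPM in KO E2 against 8.05 to 41.3 in WT E2, and summed B lineage markers were 163 to 291 against 11.3 to 16.0, and their part in the differences of Myb, C3, Cxcl12, Lcn2, Scnn1a, Hsd11b1 and Hsd11b2 was not tested.

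On the average of KO against WT, where edgeR called 7.36% of all tested genes, it called 1 glucocorticoid receptor target higher and 1 lower, and of 12 tested Esrra targets 1 higher and 2 lower. DESeq2 called 4 higher and 1 lower of the first list and 1 higher and 4 lower of the second. Under estradiol edgeR called 0 Esrra targets, with 8 at an unadjusted p under 0.05 (26.9% of all), and DESeq2 called 2 higher and 5 lower. Pdk4, a brake on glucose oxidation that stands on both lists, was 0.60 higher (adjusted p = 0.0369). The metallothionein Mt1 fell by 0.34 (adjusted p = 0.0414), the cytochrome Cycs by 0.39 (adjusted p = 0.0234) and the succinate dehydrogenase subunit Sdhb by 0.28 (adjusted p = 0.0414). These kept their calls in 8 (Pdk4), 7 (Mt1), 12 (Cycs) and 6 (Sdhb) of 17 alternatives. Mt1 was -0.20 without WT Plb library 1 and Sdhb -0.16 without WT Plb library 2. Without the muscle-rich libraries Cycs was -0.25, Cyp1b1 0.19 and Hsd17b12 -0.16, and summed muscle markers differed between the libraries as given above. Their part in these differences was not tested.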

How the data were processed

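The submitters' processing notes name bcl2fastq 2.17, TopHat and the mm9 build. Which counter, annotation and strand setting were used is not given in these sources. The authors deposited raw counts per gene symbol for 11 samples, and 0 sample columns were left unmapped. Per the file headers, the authors' 6 comparison tables hold a mean signal of normalized counts, log2 fold changes with errors, a test score, and raw and adjusted p-values in the format of DESeq2. Their direction was set from the signs of a few genes against the counts. Esr1 was among these, so its sign in the authors' comparisons is not independent of the counts.

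Counts were analysed in R 4.3.3 with edgeR 4.0.16. The filter (at least 10 counts in enough samples, 15 in total) kept 14531 genes with 99.98% of counts. Libraries were scaled by TMM, and a robust quasi-likelihood model of the 4 groups over all 11 samples had 7 residual degrees of freedom. Adjusted p-values are Benjamini-Hochberg over all tested genes. The SE is the absolute log2 difference over the root of F. Replicates of a group differed beyond sampling noise in every pair. On simulated data for estradiol in WT (14323 genes), 82% of 100 changes of 1 on the log2 scale and 98% of 100 changes of 2 were recovered, with 5 false calls. The changes were set in well-counted genes, with spread taken from the trend over genes and no library rich in muscle RNA or Rn45s. These shares therefore do not apply to genes near 0 such as Pgr and Esr2, and may be too high for the real libraries.

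Alternatives were RLE scaling, no filter, DESeq2 1.42.0, a replicate block, each library left out, and, added after seeing the data, the 3 muscle-rich libraries or Rn45s left out. The rule for named genes took all 9 receptors, 6 further receptors (1 of them is not reported here), up to 6 called genes per list and comparison, and the 3 nearest patterns. Same-numbered KO E2 and KO Plb samples deviated together (r of 0.142 to 0.386 in the 3 pairs), so the numbers were taken to pair these groups, from the data and not the labels. Deviations within a group of 3 sum to 0, so these r values are not independent and do not establish a pairing. The main fit leaves the KO pairing out. The replicate block fits the number as an effect shared by all 4 groups, WT included, so it is not a pairing of the KO groups alone. Genes given only for a DESeq2 call (Paqr9, Klf9 and others) were named after their values were seen. Members, lists and rule were chosen with earlier results of these data known. Exon lengths and overlaps came from GENCODE M21. Symbols were matched exactly.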

Additional observations from a re-analysis of the deposited data

Results flagged for a closer look

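Of the genes named above, 5 estrogen receptor targets had an effect of estradiol that differed between the genotypes by the interaction test of edgeR (WT effect minus KO effect, adjusted p under 0.05), and none of the 7 receptor genes with counts in every library did. Pgr gives no such value, since its KO groups are at or under the floor. The interaction was 6.95 for Greb1 (SE 1.27, adjusted p = 0.0210), 1.40 for Wnt4 (SE 0.13, adjusted p = 0.000477), -2.75 for Cxcl12 (SE 0.32, adjusted p = 0.00243), -1.49 for Igf1 (SE 0.26, adjusted p = 0.0201) and -6.36 for Myb (SE 0.54, adjusted p = 0.000910). The Greb1 value rests on 3 counts in KO E2 and 6 in KO Plb, against 863 in WT E2 and 5 in WT Plb. Its size therefore depends on how the fit treats counts near 0. Because Greb1 passed the filter through WT E2 alone, its interaction is a description rather than a test, though it is 1 of the 5. Greb1 was called in 11 and Igf1 in 12 of 17 alternatives, and Wnt4, Cxcl12 and Myb in all 17. DESeq2 called the interaction for these 5, and beside them for C3, Pparg, Ncoa7 and Hsd11b1.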

How the results depend on the processing

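The number of receptor genes called under each alternative changed as follows. For KO against WT under estradiol it was 1 with DESeq2 and 1 with the replicate block (Esr1 in both, with Pgr at -3.73, adjusted p = 0.0640) in place of 2, and 0 to 2 with 1 library left out. For the average of KO against WT it was 2 with DESeq2 (Esr1 and Pgr) in place of 1, and 1 to 2 with 1 library left out. For KO against WT under placebo it was 1 with DESeq2 (Esr1), and for estradiol in WT 1 without the 3 muscle-rich libraries (Nr3c1), each in place of 0. RLE scaling, no filter and leaving out Rn45s changed none of these counts. Outside the KO groups the numbers do not meet the mark for pairing: deviations of same-numbered samples correlated at -0.203 to 0.198 there. With the KO pairs included the range was -0.203 to 0.386, and 7 of 11 samples correlated best with their own number. Without the muscle-rich libraries, differences that had not passed changed sign: for estradiol in KO, Esr1 0.28, Nr3c1 0.00503, Nr3c2 0.099 and Thrb 0.12; for KO against WT under placebo, Nr3c1 -0.26, Nr3c2 -0.099 and Thrb -0.49; for the average, Nr3c1 -0.0113, Thra 0.086 and Thrb -0.11. The cause was not tested.

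With 1 library left out, further uncalled differences changed sign within these ranges. For estradiol in WT they were -0.93 to 0.0855 (Esr1), -0.82 to 0.00423 (Nr3c2) and -0.64 to 0.28 (Thrb). For estradiol in KO they were -0.20 to 0.0751 (Thrb) and -0.13 to 0.0724 (Vdr). For the interaction they were -0.69 to 0.33 (Esr1), -0.14 to 0.0111 (Esrra), -0.30 to 0.18 (Nr3c1), -0.53 to 0.30 (Nr3c2) and -0.58 to 0.34 (Thrb). For KO against WT under placebo they were -0.0682 to 0.41 (Nr3c1), -0.00743 to 0.19 (Thra), -0.32 to 0.61 (Thrb) and -0.0768 to 0.27 (Vdr). Under estradiol Esrra ran from -0.11 to 0.0452, and on average Thra from -0.0682 to 0.0345 and Thrb from -0.0228 to 0.43. Genes called over the whole table were 639 (estradiol in WT), 937 (estradiol in KO), 554 (interaction), 38 (KO against WT under placebo) and 1894 (average) with DESeq2, against 225, 396, 167, 1 and 1069. With the replicate block they were 629, 301 and 17 for estradiol in KO, the interaction and placebo, and without the muscle-rich libraries 1, 6 and 160 for estradiol in KO, placebo and the average. With 1 library left out they were 113 to 285, 105 to 505, 68 to 270, 1 to 50 and 408 to 1711 in the order first given, and 867 to 1850 for KO against WT under estradiol, against 1667. Counts of 45 (Pgr) and 11 (Esr2) in all limit what those genes can show.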
